A study of Mus musculus with 19 samples.

Results

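Antigen presentation genes and interferon-stimulated genes were followed in mouse liver through a reproductive cycle. The 43 genes were chosen by gene name among 51826 gene entries: 10 genes of major histocompatibility complex (MHC) class I presentation, 6 of class II presentation, 20 targets of type I interferon and 7 targets of interferon gamma. Each symbol occurred once, and all 43 had a mean of at least 0.1 TPM, transcript abundance scaled to a fixed total in each sample, over the mice, as did 16230 of all entries, which were tested together.

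RNA was sequenced from flash frozen liver of 19 female Balb/c mice (Balbc in the labels) of 12 weeks, of which 7 were nulliparous (NUL), 6 were at lactation day 10 (LAC) and 6 were at involution day 6 (ID6), after weaning. The labels name no transgene and no agent, and each mouse gave 1 sample. Numbers after a stage name, as in NUL_226, are animal numbers. The study bought its mice from Charles River Laboratories and The Jackson Laboratory, and the labels give neither the supplier nor a batch for a mouse. Animal numbers ran from 1 to 240. Those under 200 belonged to 3 NUL and 3 LAC mice, and those of 200 and above to 4 NUL, 3 LAC and all 6 ID6 mice. Where ID6 was compared with lower-numbered mice, the stage and the range of animal numbers therefore cannot be told apart, and the comparisons were repeated among the 13 mice numbered 200 and above.

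Values are TPM, which are scaled to the same total in every sample and keep no read depth, so no counting error can be given. Genes at or above 1 TPM numbered 11244 to 11623 in NUL, 11209 to 11448 in LAC and 11390 to 11797 in ID6 mice. The hepatocyte transcript Alb alone took 4.25 to 6.7% of all TPM in NUL, 8.11 to 12.7% in LAC and 5.53 to 8.26% in ID6 mice, and a larger share of one gene lowers the TPM of all others. No 2 of the 19 mice had identical values. Reads shared by near-identical genes were divided among them by estimation, so single values within the H2, Ifit, Oas, Mx, Gbp and immunity-related GTPase families are uncertain. The reads were aligned to a genome that derives from C57BL/6 mice, whose H2 alleles differ from those of Balb/c mice, and what this did to the H2 values was not tested.

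In MHC class I presentation, peptides cut by the proteasome are carried into the endoplasmic reticulum and loaded on heavy chains paired with beta-2-microglobulin, which nearly all cells show to CD8 T cells. Class II molecules carry peptides of engulfed proteins and are mainly made by dendritic cells, B cells and macrophages, which in liver include Kupffer cells, and there also by sinusoidal endothelium. Type I interferons act through the factor ISGF3, which binds the interferon-stimulated response element (ISRE), and interferon gamma acts through STAT dimers that bind the gamma-activated site (GAS). Interferon gamma also raises class I and class II genes, the latter through the transactivator Ciita.

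Promoters of a few members are shown because they carry these 2 elements. RefSeq windows of assembly GRCm38.p6 held an entry for 33 of the 43 members, and the 250 bases before each start are printed 5′ to 3′ on the strand of the gene, with ISRE letters (GAAANNGAAA) and GAS letters (TTCNNNGAA), searched on both strands, in capitals. The GAS letters read the same on both strands and were counted once. Only exact letters were counted, so a window without them may still hold a variant of either element. B2m at chr2:122147437-122147686 (+) encodes beta-2-microglobulin, and it was the only one of 8 class I genes with the ISRE letters in a window. Bst2 at chr8:71537473-71537722 (-), Isg15 at chr4:156200819-156201068 (-) and Ifit1 at chr19:34640639-34640888 (+) are type I targets, with overlapping matches in the first 2 and matches on the opposite strand in Ifit1. Irf1 at chr11:53769764-53770013 (+), Igtp at chr11:58199306-58199555 (+) and Gbp3 at chr3:142559794-142560043 (+) are interferon gamma targets.
B2m: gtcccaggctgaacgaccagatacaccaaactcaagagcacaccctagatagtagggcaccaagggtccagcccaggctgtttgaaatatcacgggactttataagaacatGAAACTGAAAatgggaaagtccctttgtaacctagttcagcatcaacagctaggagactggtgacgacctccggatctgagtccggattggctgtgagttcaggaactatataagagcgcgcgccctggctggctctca
Bst2: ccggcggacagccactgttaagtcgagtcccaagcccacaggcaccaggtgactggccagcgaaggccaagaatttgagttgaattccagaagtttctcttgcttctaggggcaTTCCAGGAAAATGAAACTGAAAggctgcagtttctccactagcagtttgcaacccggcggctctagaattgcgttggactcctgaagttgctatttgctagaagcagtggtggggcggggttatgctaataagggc
Isg15: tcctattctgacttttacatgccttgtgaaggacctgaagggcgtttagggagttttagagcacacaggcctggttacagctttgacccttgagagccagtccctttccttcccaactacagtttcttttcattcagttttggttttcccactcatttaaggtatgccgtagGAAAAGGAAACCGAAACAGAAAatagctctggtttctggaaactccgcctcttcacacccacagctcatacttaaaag
Ifit1: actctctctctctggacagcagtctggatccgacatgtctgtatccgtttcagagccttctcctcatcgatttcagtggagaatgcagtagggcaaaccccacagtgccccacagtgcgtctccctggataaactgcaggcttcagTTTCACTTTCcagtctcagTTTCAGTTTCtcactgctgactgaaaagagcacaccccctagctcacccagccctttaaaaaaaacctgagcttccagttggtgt
Irf1: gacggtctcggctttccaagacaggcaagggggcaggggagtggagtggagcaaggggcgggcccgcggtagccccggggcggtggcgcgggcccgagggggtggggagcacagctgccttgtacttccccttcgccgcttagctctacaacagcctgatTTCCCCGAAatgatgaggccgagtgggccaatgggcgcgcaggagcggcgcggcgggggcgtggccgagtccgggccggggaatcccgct
Igtp: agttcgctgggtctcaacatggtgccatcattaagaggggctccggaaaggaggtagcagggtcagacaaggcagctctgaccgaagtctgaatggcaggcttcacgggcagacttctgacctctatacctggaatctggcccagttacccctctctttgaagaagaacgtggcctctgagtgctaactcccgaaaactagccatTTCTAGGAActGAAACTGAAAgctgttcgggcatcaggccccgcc
Gbp3: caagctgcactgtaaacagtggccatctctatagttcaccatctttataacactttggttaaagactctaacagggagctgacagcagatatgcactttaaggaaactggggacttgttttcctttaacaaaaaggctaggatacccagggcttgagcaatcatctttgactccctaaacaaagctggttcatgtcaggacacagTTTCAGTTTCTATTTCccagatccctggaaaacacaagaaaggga

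In B2m the ISRE letters began 139 bases before the start, in Irf1 the GAS letters began 90 bases before it, and in Igtp a GAS match at 45 bases stood next to an ISRE match at 34. Counted over the whole windows of 300 bases, 15 of the 33 members (45.5%) held the ISRE letters, against 1079 of 27025 genes (3.99%). By group these were 1 of 8 class I genes, 0 of 3 class II genes, 9 of 15 type I targets and 5 of 7 interferon gamma targets. The GAS letters were held by 7 of the 33 members (21.2%), of which 1 was a class I gene, 3 were type I targets and 3 were interferon gamma targets, against 2582 of 27025 genes (9.55%). These matches describe letters in a window and not binding. In the genome, 11 of the 43 members lie within 1.35 Mb of chromosome 17, between positions 33915899 and 35267499, in the H2 complex that holds the class I and class II chains, Tap1, Tap2, Tapbp, Psmb8 and Psmb9.

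Across the 43 genes, 17 fell and none rose at LAC against NUL, 31 rose and none fell at ID6 against LAC, and 4 rose at ID6 against NUL. Here a gene rose or fell where its limma p, adjusted over the whole table, was under 0.05, and log2 changes are on the log2(TPM + 1) scale, which understates the change of low genes. Over all 16230 genes, 6.49% fell and 2.72% rose at LAC against NUL, 18.1% rose and 4.73% fell at ID6 against LAC, and 3.44% rose at ID6 against NUL. The same shares apply to the counts in all mice of each group and list below. With a change of at least 2-fold on this scale also asked, 6 members fell at LAC, against 0.314% of all genes, and 10 rose at ID6 against LAC, against 1.03%. The study set the same 2-fold limit on a test of counts, and on the log2(TPM + 1) scale the limit is stricter for low genes. The LAC mice all lay below the NUL mice in 5 members, against 2.29% of all genes, and the ID6 mice all lay above the LAC mice in 21, against 9.3%. In 3 members all ID6 mice lay above all NUL mice, against 1.84% of all genes. The median log2 change of the 43 members was -0.40 from NUL to LAC, 0.58 from LAC to ID6 and 0.21 from NUL to ID6, beside -0.03, 0.10 and 0.07 over all genes tested. The comparisons share the LAC mice or the NUL mice with each other and are not independent. Median-ratio scaling of the TPM moved the median of all genes from LAC to ID6 to 0.00 and the counts of all genes from 2936 higher and 767 lower to 1366 higher and 1262 lower. From NUL to LAC it moved them from 441 higher and 1053 lower to 681 higher and 814 lower. Under that scaling 15 members fell at LAC, 22 rose at ID6 against LAC and 1 rose at ID6 against NUL, and no member passed in the opposite direction.

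**Figure D1:**
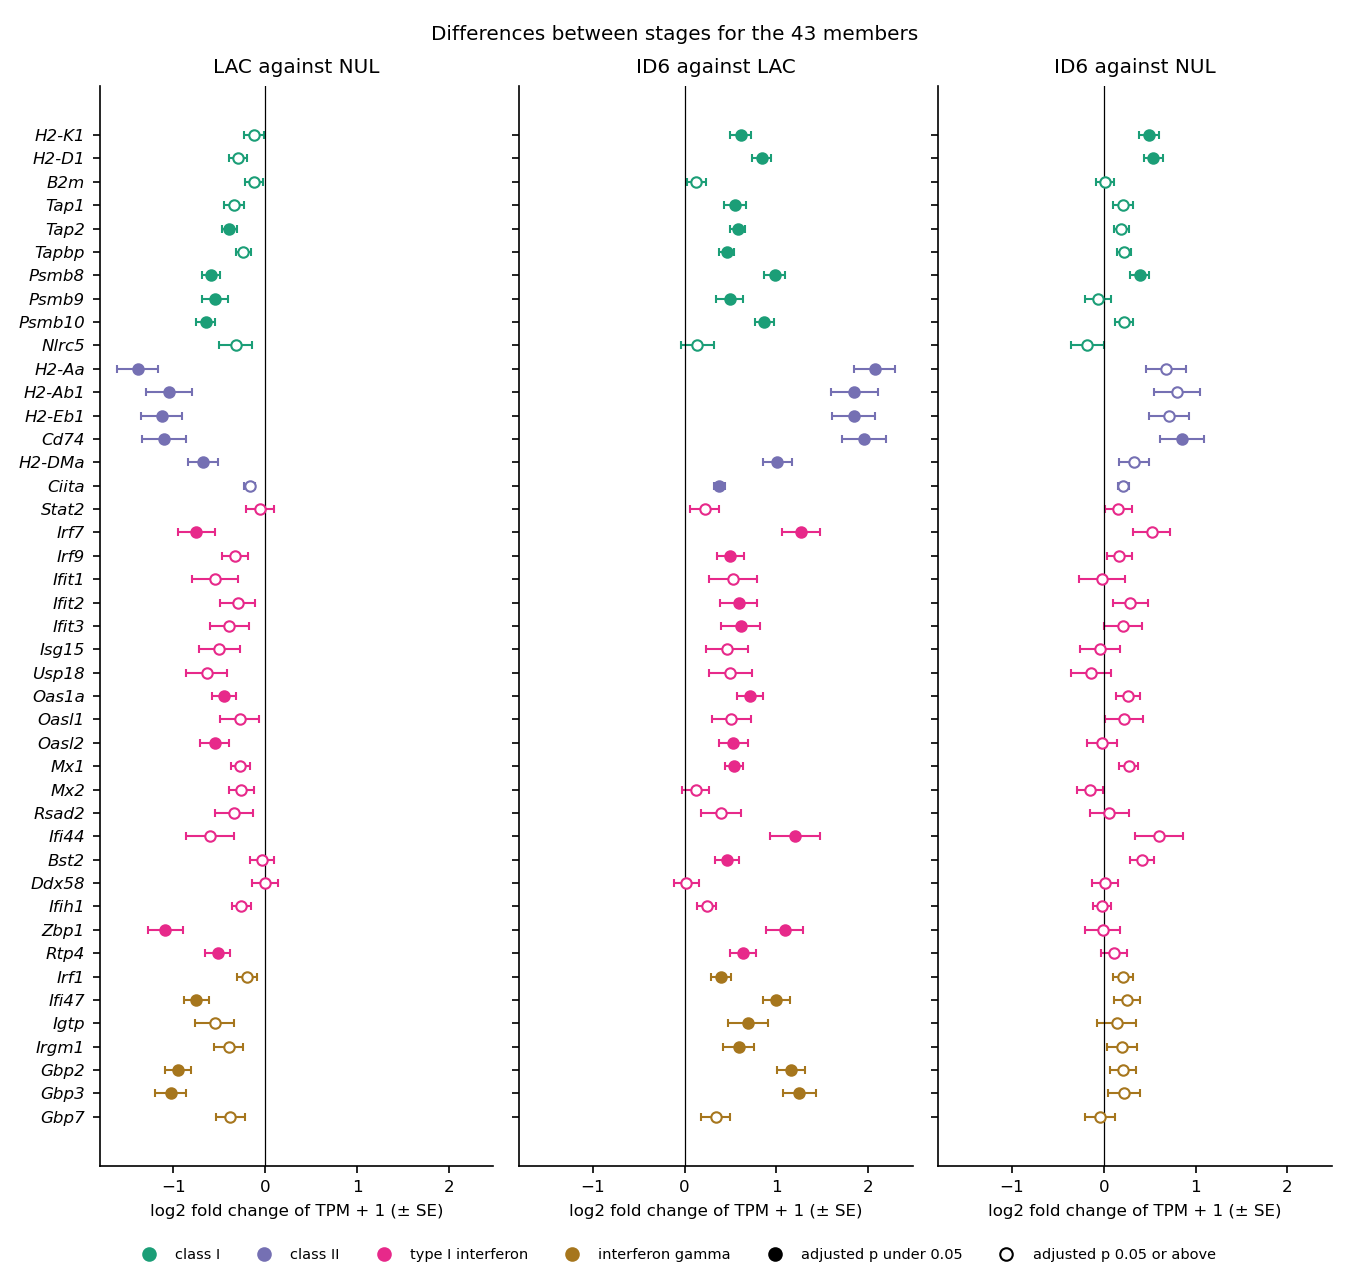
Log2 fold change with its standard error, on the log2(TPM + 1) scale, of the 43 members by group in the 3 stage comparisons, with filled points for genes past 0.05 after adjustment. By group median the class II genes sit farthest from 0, at -1.08 from NUL to LAC and 1.84 from LAC to ID6, though Ciita lies at -0.17 and 0.38. No filled point is right of 0 in the first comparison or left of it in the second.

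The largest log2 changes among the 43 members were those of class II genes. Of the 6 genes, 5 fell at LAC, 4 of them at least 2-fold, and all 6 rose from LAC to ID6, 5 of them at least 2-fold, with no overlap between LAC and ID6 mice in any of the 6. The summed level of the 6 genes ran from 78.7 to 197 TPM in NUL (mean 134), from 34.1 to 80.3 TPM in LAC (mean 58.2) and from 159 to 318 TPM in ID6 mice (mean 229). In bulk liver, fewer cells that make class II and less class II RNA per cell cannot be told apart.

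Cd74, the invariant chain that fills the class II groove until peptides are loaded, was the most abundant class II member. Its lowest, median and highest level was 40.8, 74 and 106 TPM in NUL, 20.1, 33.9 and 45.2 TPM in LAC and 92.3, 124 and 172 TPM in ID6 mice. The LAC and ID6 mice did not overlap, while the highest LAC mouse lay above the lowest NUL mouse. Cd74 fell by 1.10 ± 0.24 on the log2 scale (SE) at LAC (adjusted p = 0.00594) and rose by 1.95 ± 0.24 from LAC to ID6 (adjusted p = 2.17e-05). It was also 0.85 ± 0.24 higher at ID6 than in NUL mice (adjusted p = 0.0475). That call was lost when any of 12 of the 19 mice was left out, with adjusted p between 0.0295 and 0.11 over the 19 fits, and among mice numbered 200 and above the difference was 0.44 ± 0.16 (adjusted p = 0.261).

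H2-Aa and H2-Ab1 encode the alpha and beta chains of one class II molecule and H2-Eb1 the beta chain of the other. H2-Aa ran through 14.3, 18.3 and 29 TPM in NUL, 3.45, 6.52 and 9.9 TPM in LAC and 21.2, 29.6 and 47.7 TPM in ID6 mice (lowest, median and highest). The LAC mice lay below every NUL mouse and every ID6 mouse, and the fall of 1.39 ± 0.22 at LAC (adjusted p = 4.83e-04) and the rise of 2.07 ± 0.22 to ID6 (adjusted p = 6.35e-06) were the largest among the 43 members. H2-Ab1 ran through 11.5, 20.9 and 33.1 TPM in NUL, 5.17, 10.7 and 13.3 TPM in LAC and 23.4, 35.4 and 54 TPM in ID6 mice. It fell by 1.05 ± 0.25 at LAC (adjusted p = 0.0118), with overlapping mice, and rose by 1.85 ± 0.26 to ID6 (adjusted p = 6.15e-05), with no overlap. In H2-Eb1 the levels were 9.42, 16.4 and 23.5 TPM in NUL, 4.41, 7.28 and 9.81 TPM in LAC and 17.8, 25.3 and 39.8 TPM in ID6 mice. Its log2 changes were -1.13 ± 0.22 (adjusted p = 0.00278) and 1.84 ± 0.23 (adjusted p = 1.81e-05), and again ID6 stood clear of LAC while NUL and LAC overlapped. At ID6 against NUL the log2 differences of H2-Aa, H2-Ab1 and H2-Eb1 were 0.68, 0.80 and 0.71, with adjusted p of 0.073, 0.0722 and 0.069. Without NUL_226 those values passed, with adjusted p of 0.0412, 0.0426 and 0.0435.

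H2-DMa, part of the complex that exchanges peptides on class II, had means of 2.71, 1.31 and 3.59 TPM in NUL, LAC and ID6 mice. It fell by 0.68 ± 0.16 at LAC (adjusted p = 0.00942) and rose by 1.01 ± 0.16 to ID6 (adjusted p = 2.08e-04). Ciita, the transactivator of class II genes, was low in every mouse, at 0.16, 0.24 and 0.45 TPM in NUL, 0.08, 0.125 and 0.17 TPM in LAC and 0.26, 0.475 and 0.57 TPM in ID6 mice. The highest LAC mouse lay above the lowest NUL mouse, and every ID6 mouse lay above every LAC mouse. Ciita rose by 0.38 ± 0.06 from LAC to ID6 (adjusted p = 2.76e-04), and its change at LAC was -0.17 ± 0.06 (adjusted p = 0.089). With a pseudocount of 0.1, which compresses low values less, that change was -0.67 (adjusted p = 0.0415).

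**Figure D2:**
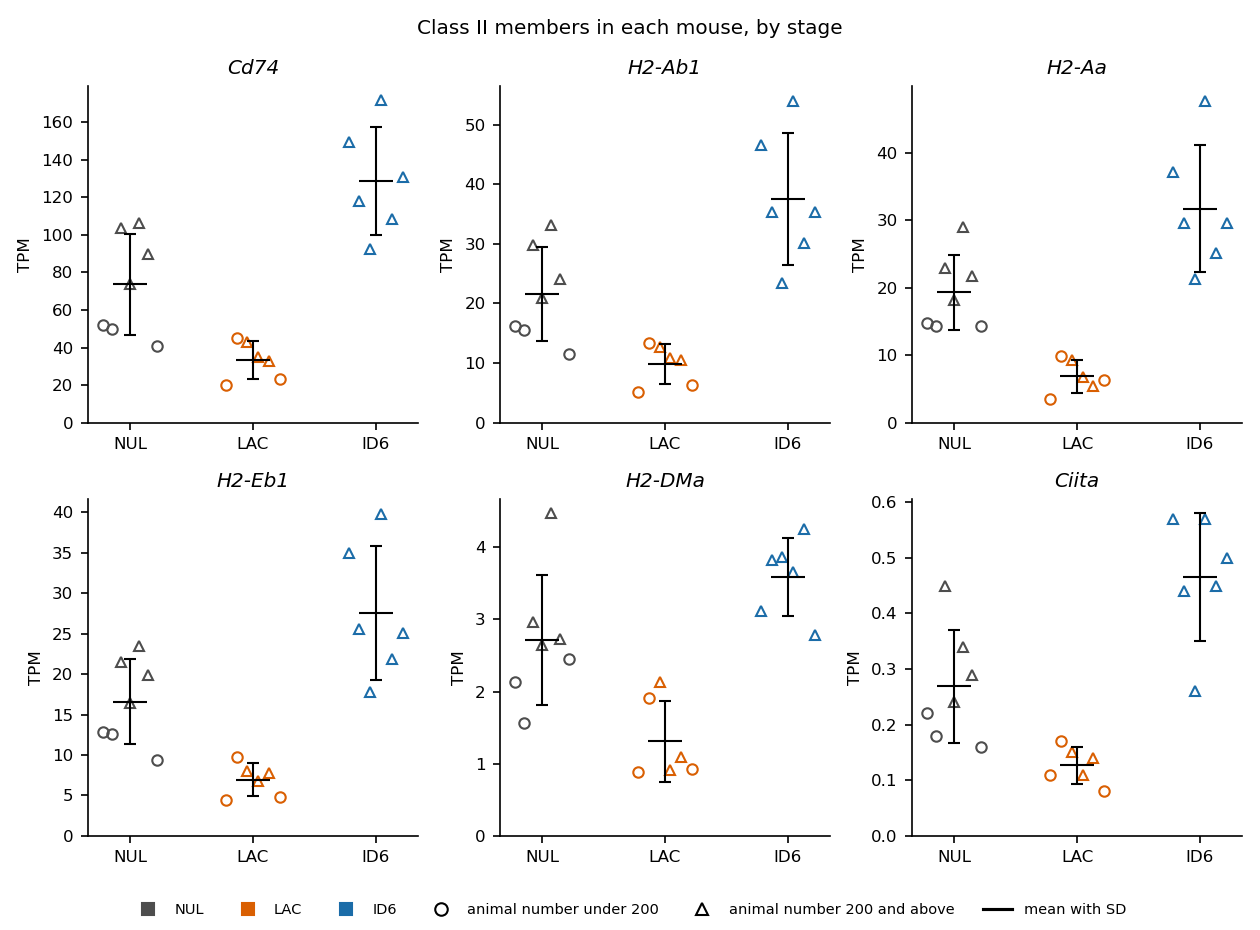
TPM of Cd74, H2-Ab1, H2-Aa, H2-Eb1, H2-DMa and Ciita in each mouse by stage, with the mean and SD of 7 NUL, 6 LAC and 6 ID6 mice. In all 6 panels the ID6 mice lie above the LAC mice without overlap, for example 92.3 to 172 TPM against 20.1 to 45.2 TPM for Cd74.

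LAC, the stage with the lowest class II levels, also had the lowest mean sums of Kupffer cell markers and of markers shared by all leukocytes. The mean sums of sinusoidal endothelial, cholangiocyte and stellate cell markers were lowest at LAC too. B cell markers had their lowest mean sum in NUL mice (12.7 TPM, against 15.4 TPM in LAC mice). The summed TPM of 11 Kupffer cell markers was 291 to 546 in NUL, 199 to 377 in LAC and 611 to 816 in ID6 mice. Of the 11, 10 fell at LAC and all 11 rose at ID6 against LAC (all genes 6.49% and 18.1%). Adgre1, a macrophage surface receptor, changed by -0.60 at LAC (adjusted p = 0.0178) and by 1.35 from LAC to ID6 (adjusted p = 1.21e-05), and Clec4f, a lectin of Kupffer cells, by -0.59 (adjusted p = 0.0352) and 1.23 (adjusted p = 8.12e-05). The 4 markers shared by all leukocytes summed to 10.3 to 24.6 TPM in NUL, 8.45 to 15 TPM in LAC and 25.2 to 36.3 TPM in ID6 mice, with 3 lower at LAC and 4 higher at ID6. Of these, Ptprc, a phosphatase of all leukocytes, fell by 0.52 ± 0.15 at LAC (adjusted p = 0.0412) and rose by 1.14 ± 0.16 to ID6 (adjusted p = 6.15e-05). Ptprc averaged 3.12 TPM and Cd74 78.2 TPM. The log2(TPM + 1) scale understates the change of low genes, so the changes of these genes were not compared. At ID6 against NUL in all mice, 11 of 11 Kupffer and 3 of 4 leukocyte genes rose too, against 3.44% of all genes. These counts include the NUL mice numbered under 200, whose Kupffer sums were 291 to 376 TPM and leukocyte sums 10.3 to 15.9 TPM. In NUL mice numbered 200 and above, the range of all ID6 mice, the sums were 460 to 546 TPM and 22.1 to 24.6 TPM. Stage and range are thus mixed in these counts. Of the 6 class II genes 1 passed at ID6 against NUL in all mice. H2-Aa, H2-Ab1, H2-Eb1 and Ciita were higher too but missed the threshold, with limma adjusted p of 0.073, 0.0722, 0.069 and 0.0549. These counts do not show that the lists changed differently. The part of the Kupffer and leukocyte lists in the class II result was not tested.

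Summed T cell and NK cell markers ran from 3.77 to 13.1 TPM in NUL, 1.97 to 4.76 TPM in LAC and 10.5 to 20.7 TPM in ID6 mice. Of 14 genes, 11 were higher at ID6 than LAC, where 18.1% of all genes were higher. Conventional dendritic cell markers summed to 2.16 to 3.39, 1.8 to 2.28 and 2.63 to 5.08 TPM, with 4 of 7 higher at ID6, monocyte markers to 13.8 to 25, 6.65 to 12.7 and 19.7 to 26.7 TPM, with 3 of 5 higher, and neutrophil markers to 4.41 to 19.1, 4.3 to 9.31 and 13.6 to 22 TPM, with 4 of 5 higher. B cell markers overlapped between NUL and LAC, at 6.91 to 20.3 and 10.9 to 19.9 TPM, and reached 19.5 to 26.3 TPM in ID6 mice, with 3 of 7 higher. Sinusoidal endothelial markers summed to 122 to 156, 66.5 to 125 and 161 to 178 TPM, with 4 of 6 higher at ID6. The plasmacytoid dendritic cell list of 4 genes was carried by Ly6d, which is not particular to these cells. It summed to 1.03 to 26.9 TPM in NUL, 5.09 to 49.9 TPM in LAC and 1.45 to 2.73 TPM in ID6 mice. Several defining markers were listed at 0 in some mice, among them Ly6g in 11 of 19, Cox6a2 in 8, Klrb1c in 6, Chil3 in 4 and Cd8a in 3. Hepatocyte markers summed to 60900 to 96500 TPM in NUL, 103000 to 155000 TPM in LAC and 81200 to 115000 TPM in ID6 mice as the liver label implies. Cholangiocyte markers summed to 32.9 to 47.7, 19.4 to 29.6 and 29.4 to 39.8 TPM, and stellate cell markers to 120 to 158, 83.9 to 103 and 116 to 152 TPM. Single genes dominated several of these sums. Over all 19 mice Plac8 averaged 15.1 TPM among monocyte markers, Ighm 13.8 TPM among B cell markers and Clec4g 93.9 TPM among sinusoidal endothelial markers. Spp1 averaged 30 TPM among cholangiocyte, Dcn 105 TPM among stellate cell and Alb 71700 TPM among hepatocyte markers.

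**Figure D3:**
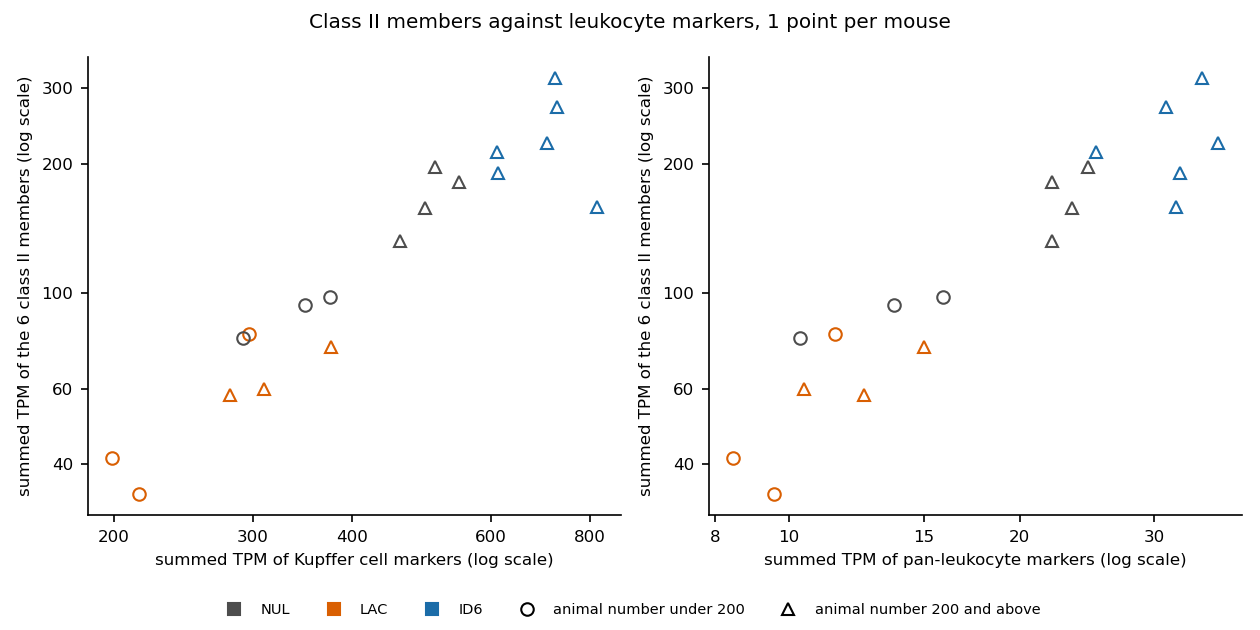
Summed TPM of the 6 class II genes in each mouse against the summed TPM of 11 Kupffer cell markers and of 4 markers shared by leukocytes, with logarithmic axes and 1 point a mouse coloured by stage. The LAC mice lie at 34.1 to 80.3 TPM of class II and 199 to 377 TPM of Kupffer markers, and the ID6 mice at 159 to 318 and 611 to 816 TPM.

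Further class II genes were followed in a list of 15, of which 14 were tested. At LAC 6 fell (all genes 6.49%), 9 rose from LAC to ID6 (all genes 18.1%) and 5 rose from NUL to ID6 (all genes 3.44%). H2-Ea-ps, annotated as a pseudogene in the reference strain but known to give E-alpha chains in Balb/c mice, had 12.3, 16.1 and 25.3 TPM in NUL, 3.02, 7.6 and 10.6 TPM in LAC and 14.8, 30.8 and 44.2 TPM in ID6 mice. The LAC mice lay below all others, with log2 changes of -1.25 ± 0.25 (adjusted p = 0.00382) and 1.95 ± 0.26 (adjusted p = 3.91e-05). Ctss, the cathepsin that trims the invariant chain, had 26.4, 30.8 and 39.2 TPM in NUL, 14.8, 19.1 and 27 TPM in LAC and 43.8, 50.7 and 59 TPM in ID6 mice, and its changes were -0.68 ± 0.13 (adjusted p = 0.00267), 1.33 ± 0.13 (adjusted p = 2.99e-06) and, from NUL to ID6, 0.66 ± 0.13 (adjusted p = 0.0108). Lgmn, a lysosomal protease, changed by -0.48 (adjusted p = 0.0119), 1.0 (adjusted p = 1.35e-05) and 0.52 (adjusted p = 0.0194) in the same comparisons. H2-DMb1, the partner of H2-DMa, had means of 1.1, 0.437 and 1.9 TPM, fell by 0.53 at LAC (adjusted p = 0.046, lost when any of 13 mice was left out) and rose by 1.0 to ID6 (adjusted p = 3.25e-04). Cd86, a costimulatory ligand, had means of 1.29, 0.87 and 2.29 TPM and rose by 0.82 from LAC to ID6 (adjusted p = 3.87e-04) and by 0.55 from NUL to ID6 (adjusted p = 0.0311, lost without any of 7 mice). Rfxap, a subunit of the factor that binds class II promoters, had means of 16.4, 17.9 and 23.5 TPM and rose by 0.50 from NUL to ID6 (adjusted p = 0.0476, lost without any of 13 mice).

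The class I genes had smaller median log2 changes than the class II genes, and the light chain did not pass in any comparison. Of the 10 genes, 4 fell at LAC (Tap2, Psmb8, Psmb9 and Psmb10), 8 rose from LAC to ID6 and 3 rose from NUL to ID6 (H2-K1, H2-D1 and Psmb8), with median log2 changes of -0.33, 0.56 and 0.22 and none of at least 2-fold. B2m, the light chain of all class I molecules and the most abundant member, had 1330, 1750 and 1990 TPM in NUL, 1380, 1560 and 1700 TPM in LAC and 1410, 1720 and 2140 TPM in ID6 mice. The stages overlapped, and its log2 changes were -0.12 ± 0.10 at LAC (adjusted p = 0.504) and 0.13 ± 0.10 from LAC to ID6 (adjusted p = 0.38). The latter was -0.02 after median-ratio scaling.

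The heavy chains H2-K1 and H2-D1 were higher at ID6 than at either other stage. H2-K1 had 75.6, 92 and 101.7 TPM in NUL, 66.4, 84.5 and 100 TPM in LAC and 107, 128 and 145 TPM in ID6 mice. H2-D1 had 211, 245 and 275 TPM in NUL, 161, 194 and 228 TPM in LAC and 285, 341 and 407 TPM in ID6 mice. In both genes every ID6 mouse lay above every NUL and LAC mouse. From LAC to ID6 H2-K1 rose by 0.61 ± 0.11 (adjusted p = 7.61e-04) and H2-D1 by 0.84 ± 0.10 (adjusted p = 1.70e-05), and from NUL to ID6 they rose by 0.49 ± 0.11 (adjusted p = 0.0203) and 0.54 ± 0.10 (adjusted p = 0.00708). Their changes at LAC were -0.12 ± 0.11 (adjusted p = 0.551) and -0.30 ± 0.10 (adjusted p = 0.0607), and the latter passed without NUL_4, LAC_200 or LAC_240, with adjusted p down to 0.0386. These were also the 2 members that rose from NUL to ID6 among the mice numbered 200 and above, where 0.473% of all genes did. After median-ratio scaling of all mice only 1 member rose from NUL to ID6, so at least 1 of these 2 calls was lost there.

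The 3 immunoproteasome subunits, which replace constitutive subunits of the proteasome and favour peptides that suit class I, fell together at LAC. Psmb8 had 43.9, 56.7 and 66.6 TPM in NUL, 28.8, 38 and 44.5 TPM in LAC and 65.9, 73.1 and 86.7 TPM in ID6 mice, and every ID6 mouse lay above every LAC mouse. It fell by 0.59 ± 0.10 at LAC (adjusted p = 0.00141) and rose by 0.98 ± 0.11 to ID6 (adjusted p = 7.09e-06). From NUL to ID6 it was 0.39 ± 0.10 higher (adjusted p = 0.0413), a call lost when any of 10 mice was left out. In Psmb10 the levels were 50, 67.8 and 82.9 TPM in NUL, 34.1, 41.3 and 45.5 TPM in LAC and 62.8, 77.5 and 83.2 TPM in ID6 mice, so that LAC lay apart from both other stages. The log2 change of Psmb10 was -0.65 ± 0.10 at LAC (adjusted p = 4.01e-04) and 0.87 ± 0.10 to ID6 (adjusted p = 1.16e-05). Psmb9 had 16.1, 20.6 and 26.9 TPM in NUL, 12.2, 13.7 and 16.7 TPM in LAC and 14.3, 20.2 and 28.8 TPM in ID6 mice, and all stages overlapped. It fell by 0.55 ± 0.14 (adjusted p = 0.0213) and rose by 0.49 ± 0.15 (adjusted p = 0.0238), and the rise was lost without ID6_218 (0.39, adjusted p = 0.058).

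Tap1 and Tap2 form the peptide transporter. Tap2 had 13.7, 16.9 and 20 TPM in NUL, 10.6, 12.9 and 14.4 TPM in LAC and 17.7, 19.5 and 20.1 TPM in ID6 mice, fell by 0.39 ± 0.08 at LAC (adjusted p = 0.00523) and rose by 0.58 ± 0.08 to ID6 (adjusted p = 8.57e-05), with no overlap in the latter. Tap1, the other subunit of the transporter, had means of 10.2, 7.9 and 12.1 TPM and rose by 0.55 ± 0.12 from LAC to ID6 (adjusted p = 0.00207). Tapbp, the tapasin that holds empty class I molecules at the transporter, had means of 51.9, 44.1 and 60.6 TPM and rose by 0.46 ± 0.08 (adjusted p = 5.21e-04), with no overlap. The changes of Tap1 and Tapbp at LAC were -0.34 (adjusted p = 0.0651) and -0.24 (adjusted p = 0.0662). Nlrc5, the transactivator of class I genes, passed in no comparison. Its levels were 1.71, 3.81 and 4.31 TPM in NUL, 1.42, 2.65 and 4.1 TPM in LAC and 2.14, 2.9 and 4.73 TPM in ID6 mice, with changes of -0.32 ± 0.18 at LAC (adjusted p = 0.294), 0.14 ± 0.18 from LAC to ID6 (adjusted p = 0.616) and -0.18 ± 0.18 from NUL to ID6 (adjusted p = 0.549).

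**Figure D4:**
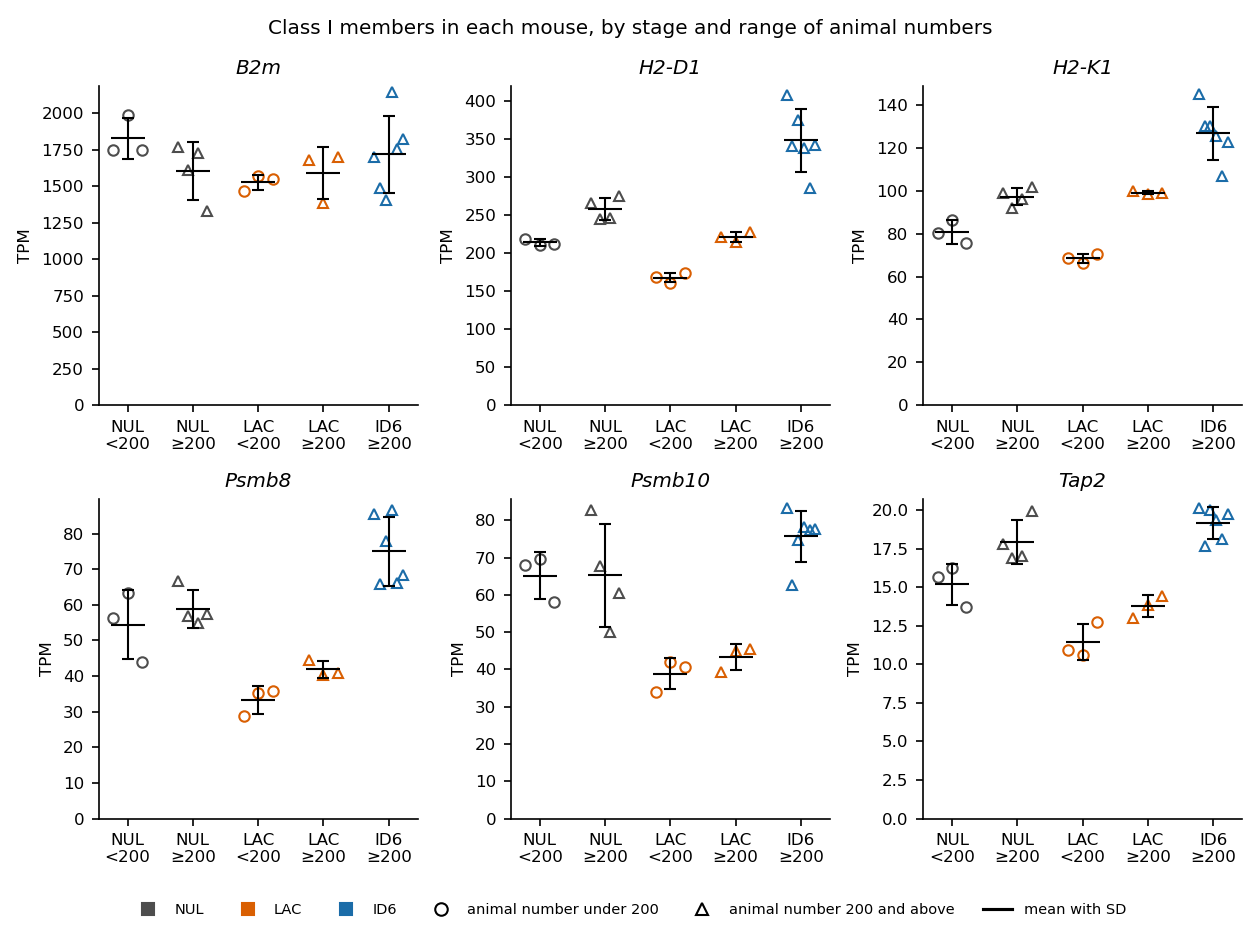
TPM of B2m, H2-D1, H2-K1, Psmb8, Psmb10 and Tap2 in each mouse by stage and range of animal numbers (under 200 against 200 and above), with the mean and SD. B2m overlaps between all stages, while the ID6 mice of H2-D1 (285 to 407 TPM) lie above all others and the LAC mice of Psmb10 (34.1 to 45.5 TPM) lie below all others.

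Of 24 further class I genes, 22 were tested. At LAC 3 fell (all genes 6.49%), 9 rose from LAC to ID6 (all genes 18.1%) and 2 rose from NUL to ID6 (all genes 3.44%). H2-T23, which encodes the nonclassical molecule Qa-1, had means of 225, 177 and 265 TPM in NUL, LAC and ID6 mice and changes of -0.35 (adjusted p = 0.00586) and 0.57 (adjusted p = 3.94e-05). H2-T24, with means of 5.81, 3.4 and 6.35 TPM, changed by -0.63 (adjusted p = 0.00206) and 0.75 (adjusted p = 2.18e-04), and H2-T22, with 43.7, 36.8 and 50.8 TPM, by -0.24 (adjusted p = 0.0469, lost without any of 14 mice) and 0.46 (adjusted p = 3.44e-04). H2-Q4 had means of 17.8, 13.8 and 26.6 TPM and rose by 0.91 from LAC to ID6 (adjusted p = 2.74e-05) and by 0.57 from NUL to ID6 (adjusted p = 0.0109). H2-M3, which presents formylated peptides, had means of 3.15, 2.21 and 4.66 TPM and rose by 0.82 (adjusted p = 1.55e-04) and by 0.46 (adjusted p = 0.0413, lost without any of 10 mice). H2-Q7 rose by 1.61 ± 0.47 from LAC to ID6 (adjusted p = 0.0193), a call lost without LAC_102 or LAC_133 (adjusted p up to 0.0532), but it differed by 1.94 ± 0.11 between the ranges of animal numbers within NUL and LAC (adjusted p = 1.00e-07).

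Of the 7 interferon gamma targets, 3 fell at LAC (Gbp2, Gbp3 and Ifi47), all without overlap between NUL and LAC mice, and 6 rose from LAC to ID6, with median log2 changes of -0.55 and 0.69, and none passed from NUL to ID6. The summed level ran from 113 to 212 TPM in NUL, 78.7 to 126 TPM in LAC and 134 to 225 TPM in ID6 mice. Gbp2 and Gbp3 encode guanylate-binding proteins, which attack the membranes of vacuoles that hold pathogens. Gbp2 had 3.81, 4.36 and 6.59 TPM in NUL, 1.37, 1.81 and 2.29 TPM in LAC and 3.68, 5.44 and 8.77 TPM in ID6 mice. Gbp3 had 7.11, 8.23 and 14.9 TPM in NUL, 2.68, 3.88 and 4.61 TPM in LAC and 7.17, 10.9 and 15.5 TPM in ID6 mice. In both, all LAC mice lay below all NUL and ID6 mice, and NUL_220 held the highest NUL value. Gbp2 fell by 0.95 ± 0.14 (adjusted p = 4.07e-04) and rose by 1.16 ± 0.15 (adjusted p = 2.67e-05), and Gbp3 fell by 1.03 ± 0.17 (adjusted p = 7.80e-04) and rose by 1.25 ± 0.18 (adjusted p = 6.43e-05).

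Ifi47, Igtp and Irgm1 are immunity-related GTPases, which act on the same vacuoles. Ifi47 had 18.4, 23.1 and 27 TPM in NUL, 9.27, 14.2 and 16.4 TPM in LAC and 19, 27 and 41.2 TPM in ID6 mice. Its LAC mice lay below all others, and it fell by 0.75 ± 0.14 (adjusted p = 0.00244) and rose by 1.0 ± 0.15 (adjusted p = 9.43e-05). Irgm1, the most abundant of the group, had 32.8, 44.2 and 70 TPM in NUL, 25.5, 37 and 44.2 TPM in LAC and 45.7, 57 and 60.5 TPM in ID6 mice, changed by -0.40 ± 0.16 at LAC (adjusted p = 0.134) and rose by 0.59 ± 0.17 to ID6 (adjusted p = 0.0143). Igtp, whose promoter holds both elements, had means of 37.2, 25.4 and 40.5 TPM, changed by -0.55 at LAC (adjusted p = 0.112) and rose by 0.69 ± 0.22 to ID6 (adjusted p = 0.0282). Irf1, the transcription factor that carries the interferon gamma response onward, had 17.6, 25.4 and 26.9 TPM in NUL, 18.2, 20.2 and 22.5 TPM in LAC and 22.3, 25.9 and 34.8 TPM in ID6 mice. All stages overlapped for Irf1, with a change of -0.20 ± 0.11 at LAC (adjusted p = 0.294) and a rise of 0.40 ± 0.11 to ID6 (adjusted p = 0.0154). Gbp7 had means of 6.84, 4.95 and 6.79 TPM and passed in no comparison.

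A list of 21 further interferon gamma targets, 20 of them tested, had 9 genes that fell at LAC (all genes 6.49%). From LAC to ID6 15 rose and 1 fell (all genes 18.1% and 4.73%), and from NUL to ID6 1 rose (all genes 3.44%). Gbp10 had 10.9, 19 and 27.7 TPM in NUL, 4.38, 5.24 and 8.99 TPM in LAC and 11.5, 15.7 and 34.3 TPM in ID6 mice, with LAC below all others and changes of -1.41 ± 0.24 (adjusted p = 9.81e-04) and 1.38 ± 0.25 (adjusted p = 5.32e-04). Gbp11 had means of 55, 25 and 49.8 TPM and changed by -1.12 (adjusted p = 5.31e-04) and 0.96 (adjusted p = 9.32e-04). Tgtp1, a further immunity-related GTPase, had means of 5.09, 1.75 and 8.71 TPM, with changes of -1.14 (adjusted p = 0.00852) and 1.78 ± 0.27 (adjusted p = 1.08e-04). Serpina3g, a serine protease inhibitor, had means of 5.14, 2.17 and 9.79 TPM and changed by -0.89 (adjusted p = 0.0432, lost without any of 10 mice) and 1.80 (adjusted p = 1.43e-04). Cxcl9, a chemokine that draws T cells, had means of 5.91, 3.38 and 12 TPM, with -0.65 at LAC (adjusted p = 0.161) and a rise of 1.58 ± 0.29 to ID6 (adjusted p = 6.25e-04). Fcgr1, a receptor for IgG, had means of 1.62, 1.16 and 2.91 TPM and rose by 0.83 from LAC to ID6 (adjusted p = 4.03e-04) and by 0.55 from NUL to ID6 (adjusted p = 0.0329, lost without any of 6 mice).

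Of the 20 type I interferon targets, 5 fell at LAC (Irf7, Oas1a, Oasl2, Zbp1 and Rtp4), 11 rose from LAC to ID6 and none passed from NUL to ID6, with median log2 changes of -0.37, 0.52 and 0.14. Zbp1, a sensor of Z-form nucleic acids that can start cell death, changed most at LAC. It had 7.27, 15.2 and 18.6 TPM in NUL, 3.94, 6.16 and 9.01 TPM in LAC and 10.2, 14.3 and 18.3 TPM in ID6 mice. All ID6 mice lay above all LAC mice, and NUL and ID6 covered much the same range. Zbp1 fell by 1.09 ± 0.19 at LAC (adjusted p = 0.00126) and rose by 1.09 ± 0.20 to ID6 (adjusted p = 6.01e-04), and ID6 differed from NUL by -0.01 (adjusted p = 0.991). Among the mice numbered 200 and above the changes were -1.05 (adjusted p = 0.00459) and 0.89 (adjusted p = 0.00346).

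Irf7, the factor that amplifies type I interferon production, had 13.3, 19.7 and 25.8 TPM in NUL, 5.72, 10.5 and 17.8 TPM in LAC and 22.8, 26.9 and 32.3 TPM in ID6 mice. The ID6 mice lay above all LAC mice. Irf7 fell by 0.75 ± 0.20 at LAC (adjusted p = 0.0252) and rose by 1.27 ± 0.21 to ID6 (adjusted p = 2.66e-04). The fall at LAC was lost without NUL_220 (-0.67, adjusted p = 0.0525), LAC_102 (-0.59, adjusted p = 0.0626), LAC_133 (-0.68, adjusted p = 0.0566) or LAC_36 (-0.68, adjusted p = 0.0596). Irf9 and Stat2 are the DNA-binding subunit and a STAT subunit of ISGF3. Irf9 had 13.7, 18.8 and 27.4 TPM in NUL, 11.8, 14.6 and 18.6 TPM in LAC and 17.6, 22.3 and 23.7 TPM in ID6 mice, all overlapping, and rose by 0.50 ± 0.15 from LAC to ID6 (adjusted p = 0.0202), but not without LAC_102 (0.44, adjusted p = 0.0536). Stat2 had 14, 23.4 and 28.7 TPM in NUL, 17.6, 20.6 and 24.8 TPM in LAC and 18, 26.1 and 30.8 TPM in ID6 mice and passed in no stage comparison (-0.06 at LAC, adjusted p = 0.855, and 0.22 to ID6, adjusted p = 0.332).

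Bst2, the tetherin that holds budding virus particles at the cell surface, was the most abundant type I target. It had 311, 398 and 498 TPM in NUL, 318, 366 and 535 TPM in LAC and 499, 542 and 587 TPM in ID6 mice, so that the ID6 mice lay above all NUL mice and overlapped with the LAC mice. Bst2 rose by 0.46 ± 0.13 from LAC to ID6 (adjusted p = 0.0177), against -0.04 ± 0.13 at LAC (adjusted p = 0.895) and 0.42 ± 0.13 from NUL to ID6 (adjusted p = 0.0659). The LAC mice numbered under 200 had 318 to 329 TPM of Bst2 and those numbered 200 and above 403 to 535 TPM. Among mice numbered 200 and above, the range of all ID6 mice, the rise from LAC to ID6 did not pass. Ifi44 had 1.74, 2.94 and 7.27 TPM in NUL, 0.99, 2.11 and 3.85 TPM in LAC and 4.89, 5.7 and 7.62 TPM in ID6 mice. Its ID6 mice lay above all LAC mice, and it rose by 1.20 ± 0.27 (adjusted p = 0.00315), while its change at LAC was -0.60 ± 0.26 (adjusted p = 0.157). Oasl2, a member of the oligoadenylate synthetase family, had 2.49, 3.46 and 4.47 TPM in NUL, 1.03, 2.09 and 3.45 TPM in LAC and 2.64, 3.28 and 4.41 TPM in ID6 mice. Its fall of 0.55 ± 0.16 at LAC (adjusted p = 0.0325) was lost without any of 6 mice (adjusted p up to 0.0846), and its rise of 0.53 ± 0.16 to ID6 (adjusted p = 0.0246) without LAC_36, LAC_102, ID6_201 or ID6_218 (adjusted p up to 0.0641).

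Among the other type I targets that passed, Oas1a, an oligoadenylate synthetase, had means of 3.67, 2.43 and 4.57 TPM, fell by 0.45 ± 0.13 (adjusted p = 0.0406) and rose by 0.71 ± 0.14 (adjusted p = 0.00115). Rtp4, with means of 20.3, 13.9 and 22 TPM, fell by 0.52 ± 0.14 (adjusted p = 0.0215) and rose by 0.64 ± 0.14 (adjusted p = 0.00341). Mx1, of a family of dynamin-like GTPases, reached at most 1.43 TPM, with means of 0.604, 0.325 and 0.938 TPM. It rose by 0.54 ± 0.10 from LAC to ID6 (adjusted p = 8.55e-04). Ifit2 and Ifit3, which bind viral RNA or the proteins that do, had means of 1.8, 1.35 and 2.38 TPM and of 7.83, 6.14 and 9.25 TPM, and rose by 0.59 ± 0.20 (adjusted p = 0.0379) and 0.61 ± 0.21 (adjusted p = 0.0469) from LAC to ID6. The targets that passed in no stage comparison were Stat2, Ifit1, Isg15, Usp18, Oasl1, Mx2, Rsad2, Ddx58 and Ifih1. Their means in NUL, LAC and ID6 mice were 5.21, 3.44 and 4.94 TPM for Ifit1, 32.7, 24.2 and 31.7 TPM for the ubiquitin-like Isg15, 8.53, 5.35 and 7.48 TPM for Usp18, which removes Isg15 from proteins, 4.1, 3.37 and 4.94 TPM for Oasl1 and 5.02, 4.07 and 4.45 TPM for Mx2. Rsad2, which encodes viperin, had means of 2.54, 1.8 and 2.58 TPM, and the RNA sensors Ddx58 and Ifih1 had 11.7, 11.9 and 12 TPM and 9.56, 7.83 and 9.4 TPM.

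**Figure D5:**
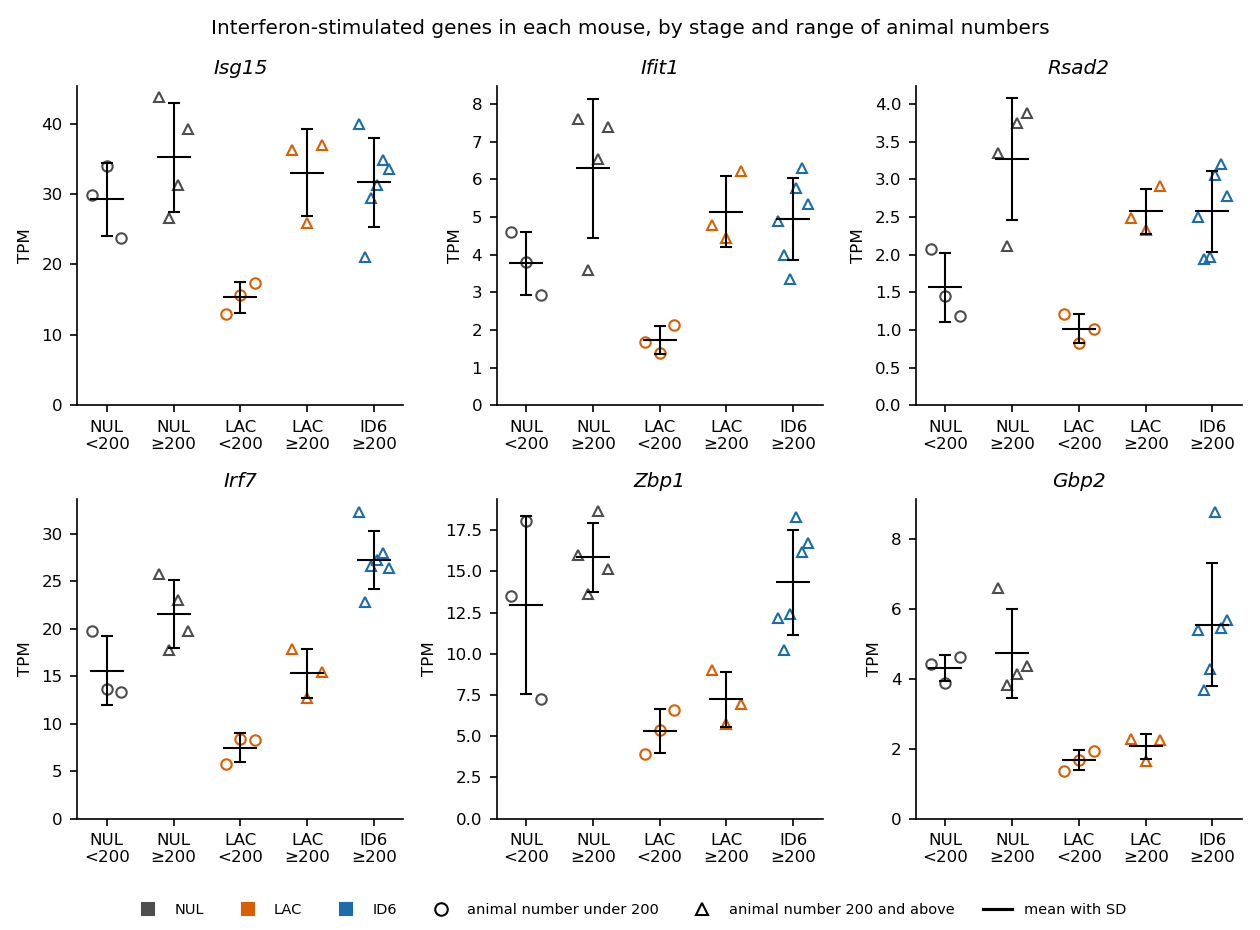
TPM of Isg15, Ifit1, Rsad2, Irf7, Zbp1 and Gbp2 in each mouse by stage and range of animal numbers, with the mean and SD. The LAC mice numbered under 200 have the lowest Isg15 (12.9 to 17.4 TPM) and Ifit1 (1.39 to 2.12 TPM), while for Gbp2 the LAC mice of both ranges lie at 1.37 to 2.29 TPM, below all others.

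Several type I targets differed between the ranges of animal numbers within a stage. With stage in the fit of the 13 NUL and LAC mice, 20 of the 43 members were higher in mice numbered 200 and above and none was lower, against 16.4% of all genes higher and 25.6% differing either way. By group these were 11 of 20 type I targets, 4 of 10 class I genes, 3 of 6 class II genes and 2 of 7 interferon gamma targets. The labels name no batch for the ranges, and what separates them was not tested. Of the 11 Kupffer cell markers, 9 were higher in the upper range too, and their part in the result was not tested. Isg15 ran from 23.8 to 34 TPM in NUL mice under 200 and from 26.6 to 43.8 TPM in those above, and from 12.9 to 17.4 TPM in LAC mice under 200 and from 25.9 to 36.9 TPM in those above. The lower-numbered LAC mice were thus apart from all others, and Isg15 differed by 0.62 ± 0.17 between ranges (adjusted p = 0.0168). Rsad2 ran from 1.18 to 2.07 and from 2.11 to 3.88 TPM in NUL and from 0.83 to 1.21 and from 2.33 to 2.91 TPM in LAC mice, with no overlap between the ranges within either stage (0.77 ± 0.12, adjusted p = 4.34e-04). Ifit1 differed by 0.86 ± 0.17 (adjusted p = 0.00262), Ifi44 by 0.93 ± 0.15 (adjusted p = 8.23e-04) and Irf7 by 0.69 ± 0.14 (adjusted p = 0.00353). Stat2 and Irf9 differed by 0.44 ± 0.09 (adjusted p = 0.00417) and 0.48 ± 0.08 (adjusted p = 0.00121).

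Among class I genes, H2-K1 ran from 75.6 to 86.6 TPM in NUL mice under 200 and from 92 to 101.7 TPM in those above, and from 66.4 to 70.5 and from 98.5 to 100 TPM in LAC mice. The ranges did not overlap within either stage, and they differed by 0.39 ± 0.06 (adjusted p = 3.12e-04). H2-D1 differed by 0.33 ± 0.05 (adjusted p = 2.56e-04), and in the same direction. The lactation effect itself, tested as an interaction with the range, differed for none of the 43 members (limma), and for 0.111% of all genes. At an unadjusted p under 0.05 it differed for 6 of the 43, against 13.2% of all genes.

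Within the 13 mice numbered 200 and above, 12 members fell at LAC, against 4.48% of all genes, and 20 rose from LAC to ID6, against 10.5%. The class II genes kept their counts there, with 5 lower at LAC and all 6 higher at ID6 and medians of -1.24 and 1.64. Cd74 there changed by -1.31 ± 0.19 (adjusted p = 0.00125) and by 1.75 ± 0.17 (adjusted p = 3.70e-05). The interferon gamma targets had 3 lower and 3 higher, and the class I genes 3 and 6. Of the type I targets 1 fell and 5 rose, with medians of -0.25 and 0.17, against 5 and 11 in all mice. In these mice the changes from LAC to ID6 were -0.07 ± 0.19 for Isg15 (adjusted p = 0.854), -0.06 ± 0.20 for Ifit1 (adjusted p = 0.885), 0.10 ± 0.18 for Ifit3 (adjusted p = 0.772) and 0.18 ± 0.10 for Bst2 (adjusted p = 0.283). H2-D1 still rose by 0.64 ± 0.09 (adjusted p = 4.33e-04) and Irf7 by 0.80 ± 0.13 (adjusted p = 0.00113). The calls lost from LAC to ID6 were Bst2, Ifit2, Ifit3, Igtp, Irf1, Irf9, Irgm1, Oasl2, Psmb9, Rtp4 and Tap1, and those lost at LAC were Irf7, Oas1a, Oasl2, Psmb9 and Rtp4. Within the 6 mice numbered under 200, 8 members fell at LAC, against 2.39% of all genes: H2-D1, Psmb10, Irf7, Ifit3, Isg15, Rtp4, Gbp2 and Gbp3. None of the 6 class II genes passed there, with a median log2 change of -0.79. Their summed level was 78.7 to 98 TPM in these NUL mice and 34.1 to 80.3 TPM in these LAC mice, which overlapped through LAC_133. Isg15 fell by 0.89 ± 0.16 there (adjusted p = 0.0354), against -0.08 ± 0.20 above (adjusted p = 0.879), and the difference of these effects was 0.80 ± 0.27 (adjusted p = 0.249).

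The interferons themselves were near the lower end of the values. Of 20 ligand genes, 15 were listed at 0 in all 19 mice, and 1 of the 20, Ifng, had a mean high enough to be tested. Ifnb1, interferon beta, was listed at 0 in 18 of 19 mice and at 0.15 TPM in LAC_213. Ifng was listed at 0 in 7 of 19 mice, with medians of 0.06 TPM in NUL, 0.01 TPM in LAC and 0.2 TPM in ID6 mice and highest values of 0.14, 0.49 and 0.67 TPM. The change of Ifng from LAC to ID6 was 0.17 ± 0.11 (adjusted p = 0.304).

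Receptors and signaling genes were measured in a list of 18, of which 17 were tested and none changed at LAC. From LAC to ID6 7 rose (all genes 18.1%), and from NUL to ID6 2 rose (all genes 3.44%). Ifngr1, the ligand-binding chain of the interferon gamma receptor, had 10, 14.5 and 20 TPM in NUL, 8.48, 10.6 and 13.9 TPM in LAC and 17.5, 19.2 and 22.1 TPM in ID6 mice. The ID6 mice lay above all LAC mice, and Ifngr1 rose by 0.80 ± 0.16 (adjusted p = 0.00114), though it also differed by 0.59 ± 0.07 between the ranges (adjusted p = 1.01e-04). The second chain Ifngr2 had means of 8.19, 8.69 and 8.08 TPM, and the type I receptor chains Ifnar1 and Ifnar2 had 14.9, 14 and 16.5 TPM and 80.3, 80.8 and 76.2 TPM, and none of these 3 passed. Jak1, a kinase that both interferon receptors use, had means of 25.1, 24.1 and 29.8 TPM, with overlapping mice, and rose by 0.30 ± 0.10 from LAC to ID6 (adjusted p = 0.0366, lost without any of 7 mice). Among mice numbered 200 and above that change was 0.20 ± 0.09 (adjusted p = 0.176). Irf8, a factor of macrophages and dendritic cells, had means of 2.68, 2.15 and 4.03 TPM and rose by 0.68 from LAC to ID6 (adjusted p = 2.31e-04) and by 0.46 from NUL to ID6 (adjusted p = 0.0227). Il10rb, a receptor chain shared with interferon lambda, had means of 4.98, 4.09 and 6.51 TPM and rose by 0.56 (adjusted p = 5.54e-05) and 0.33 (adjusted p = 0.0211).

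Of 12 genes that sense nucleic acids or relay the signal, 1 fell and 1 rose at LAC, near the shares of all genes (6.49% and 2.72%). From LAC to ID6 4 rose (all genes 18.1%), and from NUL to ID6 3 rose (all genes 3.44%). Tmem173, the adaptor STING, had means of 1.2, 0.705 and 1.54 TPM, fell by 0.37 at LAC (adjusted p = 0.00323) and rose by 0.57 to ID6 (adjusted p = 3.15e-05). Ikbke, a kinase that activates interferon regulatory factors, went the other way, with means of 8.49, 13.2 and 9.4 TPM and a rise of 0.55 ± 0.15 at LAC (adjusted p = 0.0264, lost without NUL_1, LAC_36 or LAC_102, with adjusted p up to 0.0668). Myd88, the adaptor of Toll-like receptors, had means of 9.98, 10.2 and 14.4 TPM and rose by 0.46 from LAC to ID6 (adjusted p = 0.00726) and by 0.49 from NUL to ID6 (adjusted p = 0.0225, lost without any of 4 mice).

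A list of 45 further type I targets had 13 genes that fell and 1 that rose at LAC (all genes 6.49% and 2.72%). From LAC to ID6 25 rose and 1 fell (all genes 18.1% and 4.73%), and from NUL to ID6 4 rose (all genes 3.44%). The gene against the others in both cases was Ifi27l2b, with 2.64, 4.05 and 6.2 TPM in NUL, 9.76, 12.6 and 17.3 TPM in LAC and 6.26, 8.3 and 13 TPM in ID6 mice. Its LAC mice lay above all NUL mice, with a rise of 1.51 ± 0.18 at LAC (adjusted p = 6.36e-05) and a fall of 0.53 ± 0.19 to ID6 (adjusted p = 0.0468, lost without any of 12 mice). The neighbouring family member Ifi27l2a had 26.9, 36.9 and 52.7 TPM in NUL, 14.4, 22.3 and 30.2 TPM in LAC and 34.6, 43.8 and 54.1 TPM in ID6 mice, and it fell by 0.80 ± 0.17 (adjusted p = 0.00597) and rose by 0.98 (adjusted p = 6.63e-04). Slfn2, a regulator of T cell quiescence, had means of 2.73, 1.38 and 4.08 TPM, fell by 0.65 (adjusted p = 4.37e-04) and rose by 1.10 (adjusted p = 1.48e-06), and was 0.44 higher at ID6 than in NUL mice (adjusted p = 0.0212). Sp100, a nuclear body protein, had means of 6.49, 3.95 and 7.66 TPM, fell by 0.60 (adjusted p = 5.46e-04) and rose by 0.81 (adjusted p = 1.70e-05). Ifi204 changed by -0.47 (adjusted p = 0.00803) and 0.76 (adjusted p = 7.96e-05), and Xaf1 fell by 0.66 at LAC (adjusted p = 0.0371, lost without any of 7 mice). Samhd1, which breaks down nucleotides, had means of 11.6, 9.09 and 14.5 TPM and was 0.31 higher at ID6 than in NUL mice (adjusted p = 0.0475, lost without any of 14 mice).

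The pathway lists too had fewer calls within the upper range, which holds fewer mice. Of 34 genes of those lists that passed at LAC against NUL, 11 passed in the same direction among mice numbered 200 and above, as did 44 of 71 from LAC to ID6 and 1 of 17 from NUL to ID6, which was Ifi27l2b (1.0 in log2 units, adjusted p = 0.0267). Over all genes the calls in these comparisons numbered 1494, 3703 and 707 in all mice. They numbered 1145, 2260 and 128 in mice numbered 200 and above. How many of all genes kept their call was not counted, so the losses are not particular to the lists. Among the genes named above, H2-T22, H2-T23, H2-T24, H2-DMb1, Ifi204, Ifi27l2a, Xaf1, Ikbke, Gbp10 and Tgtp1 did not pass there at LAC, and Jak1 and Myd88 did not pass from LAC to ID6. H2-Q7 rose by 0.51 from LAC to ID6 in those mice (adjusted p = 0.00863), against 1.61 in all mice.

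Whether regulators and targets varied together between mice was examined for 5 pairs, as deviations of log2(TPM + 1) from the mean of stage and range over 19 mice, with permutations of mice within stage and range and adjusted p over the 5 pairs. Ciita and Cd74 had r = 0.754 (permutation p = 1.60e-04, adjusted 8.00e-04) and rho = 0.836 (permutation p = 1.40e-04, adjusted 7.00e-04). Without the 2 mice farthest from the median of Ciita r was 0.779, and it was 0.862 in the 13 mice numbered 200 and above and 0.844 in the 6 below. Irf7 and Isg15 had r = 0.689 (permutation p = 0.00437, adjusted 0.00728) and rho = 0.63 (permutation p = 0.016, adjusted 0.0266), with r = 0.731 without 2 mice and 0.813 and 0.516 within the ranges. Irf1 and Gbp2 had r = 0.632 (permutation p = 0.0279, adjusted 0.0348) and rho = 0.546 (permutation p = 0.0348, adjusted 0.0435), with r = 0.527 without 2 mice, 0.672 in the upper range and 0.138 in the 6 mice of the lower. Nlrc5 and Tap1 did not pass, with r = 0.535 (permutation p = 0.0598, adjusted 0.0598) and rho = 0.461 (permutation p = 0.0932, adjusted 0.0932), r = 0.509 without 2 mice and 0.567 and 0.291 within the ranges. The leukocyte marker Ptprc and Cd74 had r = 0.595 (permutation p = 0.00383, adjusted 0.00728) and rho = 0.646 (permutation p = 0.00369, adjusted 0.00922), with r = 0.462 without 2 mice and 0.662 and 0.633 within the ranges. Both genes of a pair come from the same library, and Cd74 thus varied with Ptprc as well as with Ciita.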

How the data were processed

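The authors aligned paired-end reads of poly(A)-enriched liver RNA to mm10 (GRCm38) and estimated expression per gene with RSEM (version 1.3.1); the deposited table holds TPM for 51826 gene entries in 19 mice, summing to 999999 to 1000001 a mouse. TPM keep no depth, so no counting interval was given, and the authors' test on counts was not repeated. log2(TPM + 1) was tested, for 16230 genes that averaged 0.1 TPM or more, with limma (3.58.1, trend, R 4.3.3), all mice in 1 fit, with Benjamini-Hochberg adjustment over all genes tested. The range test and the interaction used NUL and LAC mice. Replicates are separate mice. Correlations used 100000 permutations (Python 3.11.15, scipy 1.17.1). Alternatives were other pseudocounts, filters, scalings, a range covariate, subsets by animal number and leaving out each mouse. No column of a sample was left unused. The methods were tested on simulated data.

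Full values were given for the 3 passing members with the largest change per group and comparison, the most abundant member of each group and 6 regulators, and up to 4 passing genes per pathway list and comparison that averaged 1 TPM or more, besides receptors and ligands. Ifnar1, Ifnar2, Ifngr1, Ifngr2, Ifnb1 and Ifng were named whatever their values. The members, lists and tests were chosen with earlier results of these data known. A gene of the signaling list is not reported here. Genes of other kinds and markers were named only where a result touches them.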

Additional observations from a re-analysis of the deposited data

Results flagged for a closer look

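In 5 genes the difference between the LAC and NUL means had opposite signs in the 2 ranges of animal numbers. H2-K1 differed by 1.84 TPM (LAC minus NUL) in mice numbered 200 and above and by -12.3 TPM in those under 200, Stat2 by -3.64 and 2.07 TPM, H2-Q7 by 1.24 and -0.477 TPM, Ifnar1 by -2.06 and 0.997 TPM, and Ifngr2 by 2.22 and -1.47 TPM. Tested as an interaction, the lactation effect differed between ranges in none of these 5 (limma, adjusted p over all genes between 0.25 and 0.349).

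A mouse stood far from the rest of its stage in 13 of 238 groups of values, and chance flags about 1 in 20 groups. NUL_220 was highest for 3 genes, with 6.59 TPM of Gbp2 (next 4.61), 14.9 of Gbp3 (next 9.33) and 10.1 of Tgtp1 (next 5.94). Without it the changes at LAC were -0.87 for Gbp2 (adjusted p = 8.99e-04), -0.91 for Gbp3 (adjusted p = 0.00108) and -0.98 for Tgtp1 (adjusted p = 0.0159). ID6_218 was highest for 3 genes, with 12.4 TPM of Xaf1 (next 8.26), 34.3 of Gbp10 (next 18.1) and 16.8 of Tgtp1 (next 9.13). LAC_213 had 3.93 TPM of Gbp7, the lowest of its stage (next 4.9), 14 TPM of Myd88 (next 10.3) and 0.15 TPM of Ifnb1 where the other LAC mice were at 0. The remaining values were 1.71 TPM of Nlrc5 in NUL_227 (next 3.46), 0.49 TPM of Ifng in LAC_200 (next 0.06), 6.28 TPM of Il10rb in NUL_226 (next 5.09) and 5.43 TPM of Sp100 in LAC_240 (next 4.11).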

How the results depend on the processing

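No alternative turned the direction of a call among the members. With 17 members lower at LAC than NUL in all mice, the count was 8 in mice numbered under 200, an alternative chosen after seeing the data, 6 with at least a 2-fold change, and 14 to 24 under the alternatives that changed the pseudocount, filter, scaling, covariate or stages fitted. With 31 higher at ID6 than LAC, it was 20 in mice numbered 200 and above, 10 with at least a 2-fold change and 22 to 31 otherwise. With 4 higher at ID6 than NUL, it was 2 in mice numbered 200 and above, 2 with no filter, 1 with median-ratio scaling, 2 with quantile normalization, 2 with the range as covariate, 0 with at least a 2-fold change by limma, and 3 or 4 otherwise. Leaving out each mouse gave 13 to 21, 26 to 34 and 2 to 7 members in these comparisons, 17 to 24 between ranges and 0 to 0 for the interaction. With median-ratio scaling Nlrc5 and Tap1 had r = 0.593 (adjusted permutation p = 0.0285) but rho = 0.498 (adjusted permutation p = 0.0842). Their r in the 6 mice numbered under 200 was -0.0107. Irf1 and Gbp2 had r = 0.677 (adjusted permutation p = 0.0253) and rho = 0.468 (adjusted permutation p = 0.0842) under that scaling. Calls over all genes ran from 698 to 2548 for LAC against NUL, from 2260 to 3870 for ID6 against LAC and from 128 to 1480 for ID6 against NUL, where all mice gave 707. Leaving out 1 mouse alone moved the latter between 242 (without NUL_13) and 1480 (without NUL_227). Subsets hold fewer mice, and the 2-fold limit is stricter by construction; otherwise the cause was not tested. No paired analysis was possible because no animal number occurs in more than 1 stage. Without depth, the precision of low genes such as Ciita, Mx1 and Ifng is unknown.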

Other observations

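The neighbouring class I genes H2-Q6 and H2-Q7 differed in opposite directions between the ranges of animal numbers, a pattern picked out after the values were seen. H2-Q6 ran from 20.2 to 26.5 TPM in NUL mice numbered under 200 and from 6.88 to 9.7 TPM in those numbered 200 and above, and from 16 to 17.6 and from 5.29 to 11.2 TPM in LAC mice. H2-Q7 ran from 1.32 to 1.87 and from 6.65 to 8.69 TPM in NUL mice, and from 0.95 to 1.31 and from 7.43 to 9.59 TPM in LAC mice. The ranges did not overlap within either stage in either gene. With stage in the fit, the mice numbered 200 and above differed by -1.25 ± 0.14 in H2-Q6 (adjusted p = 4.20e-05) and by 1.94 ± 0.11 in H2-Q7 (adjusted p = 1.00e-07) on the log2 scale. The 2 genes are near-identical, so reads may be divided between them in either direction, and what separates the ranges was not tested.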
